A study of Rattus norvegicus with 21 samples.

Results

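Matrilins are adaptor proteins of the extracellular matrix, and 4 genes encode them in the rat. The 10 genes described here are these 4 (Matn1, Matn2, Matn3 and Matn4), 3 further genes of cartilage matrix (Comp, Acan and Hapln1) and 3 genes of bone matrix phosphoproteins (Ibsp, Spp1 and Dmp1). They were listed by symbol, with 1 probe set per gene, out of 14506 genes that carry a single symbol on the array. The list was drawn up around the large difference of Matn1 between adenoma and normal pituitary, so values of the 10 genes in that comparison are given as a description, with no p-value, and support nothing. Matn2 has no probe set under its symbol in the platform annotation, and its probe set was named only through the supplementary gene list of the study, which itself holds genes picked on the same comparison.

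Each lesion or pituitary was hybridised to an Affymetrix Rat Gene 1.0 ST chip, and expression is given on the log2 scale after robust multi-array averaging (RMA), where a difference of 1 is a 2-fold change. The mutant group consisted of 16 macrodissected lesions of the anterior pituitary from MENX-affected rats, homozygous for the p27Kip1 mutation (written Cdknb1 in the labels), a strain that develops multifocal tumors of gonadotroph cells. The control group was 5 pituitaries of wild-type rats, and both groups had a Sprague–Dawley white eye/Wistar–Kyoto background with no other allele or agent given. The lesions carried 9 rat numbers, here adenomas 1 to 9, of which 4 gave 1 lesion, 3 gave 2 and 2 gave 3. Lesions of 1 number were averaged, so n is 9 adenomas against 5 wild-type pituitaries. Adenoma rats were 7 to 12 months old (6 females and 3 males) and wild-type rats 6 months (2 females and 3 males), so that genotype and age cannot be told apart in the group comparison. The text of the study gives a narrower span of ages and another number of mutant rats, and the labels were followed, so both the 9 rat numbers and the ages used below rest on the labels. The rat numbers start with 08 (5 adenomas and 2 wild-type) or 09 (4 adenomas, all female, and 3 wild-type). Of the gonadotroph markers, the common alpha subunit gene Cga (+0.91, standard error (SE) 0.11) and the gonadotropin-releasing hormone receptor gene Gnrhr (+1.40, SE 0.28) rose, while Lhb (-2.24, SE 0.28) and Fshb (-2.38, SE 0.62) fell (limma adjusted p from 0.000109 to 0.0161). The remaining measured gonadotroph marker, Gata2, did not pass (-0.08, SE 0.25, limma adjusted p = 0.862). Cdkn1b, which encodes p27Kip1, stood at 8.91 ± 0.19 in wild-type and 9.23 ± 0.17 in adenomas, so its level does not check the genotype labels.

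In cartilage, matrilins bridge collagen fibrils, proteoglycans and cartilage oligomeric matrix protein (COMP). Matrilin-1 and matrilin-3 are known mainly from cartilage, whereas matrilin-2 and matrilin-4 occur in many connective tissues. Aggrecan (Acan) is the large proteoglycan of cartilage and is held on hyaluronan by link protein 1 (Hapln1). Bone sialoprotein (Ibsp), osteopontin (Spp1) and dentin matrix protein 1 (Dmp1) are acidic phosphoproteins of mineralised tissue encoded in the same gene cluster. Osteopontin is also secreted by macrophages and epithelia.

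Matn1 measured 6.35, 6.31, 7.29, 6.95 and 6.81 in the 5 wild-type pituitaries. In the 16 lesions it ranged from 8.47 over a median of 12.05 to 12.81. No lesion overlapped the wild-type range. The mean was 6.74 ± 0.42 (SD, n = 5) in wild-type and 11.4 ± 1.30 (SD, n = 9) in adenomas, a log2 difference of 4.62 (SE 0.54), or 24.5-fold. The 9 adenoma values were 12.76, 11.92, 11.54, 10.84, 12.55, 11.47, 12.07, 8.47 and 10.59 in the order of their numbers. Adenoma 8, a single lesion, was the lowest, with the next adenoma at 10.59 and the highest wild-type value at 7.29.

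Matn2 measured 5.84, 6.47, 6.58, 6.55 and 6.45 in wild-type pituitaries, and from 6.66 over a median of 7.83 to 9.77 in the lesions. All 16 lesions lay above the wild-type range, the lowest by less than 0.1. The mean was 6.38 ± 0.31 in wild-type and 8.12 ± 1.13 in adenomas, a log2 difference of 1.74 (SE 0.47). Adenoma 8, lowest in Matn1, was the highest in Matn2. The other matrilins showed small differences. Matn3 was 4.78 ± 0.25 in wild-type and 4.87 ± 0.09 in adenomas (difference 0.09, SE 0.09), with every lesion between 4.72 and 5.03 and inside the wild-type range. Matn4 was 5.58 ± 0.13 and 5.65 ± 0.04 (difference 0.07, SE 0.06), and 2 lesions exceeded the highest wild-type value.

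**Figure D1:**
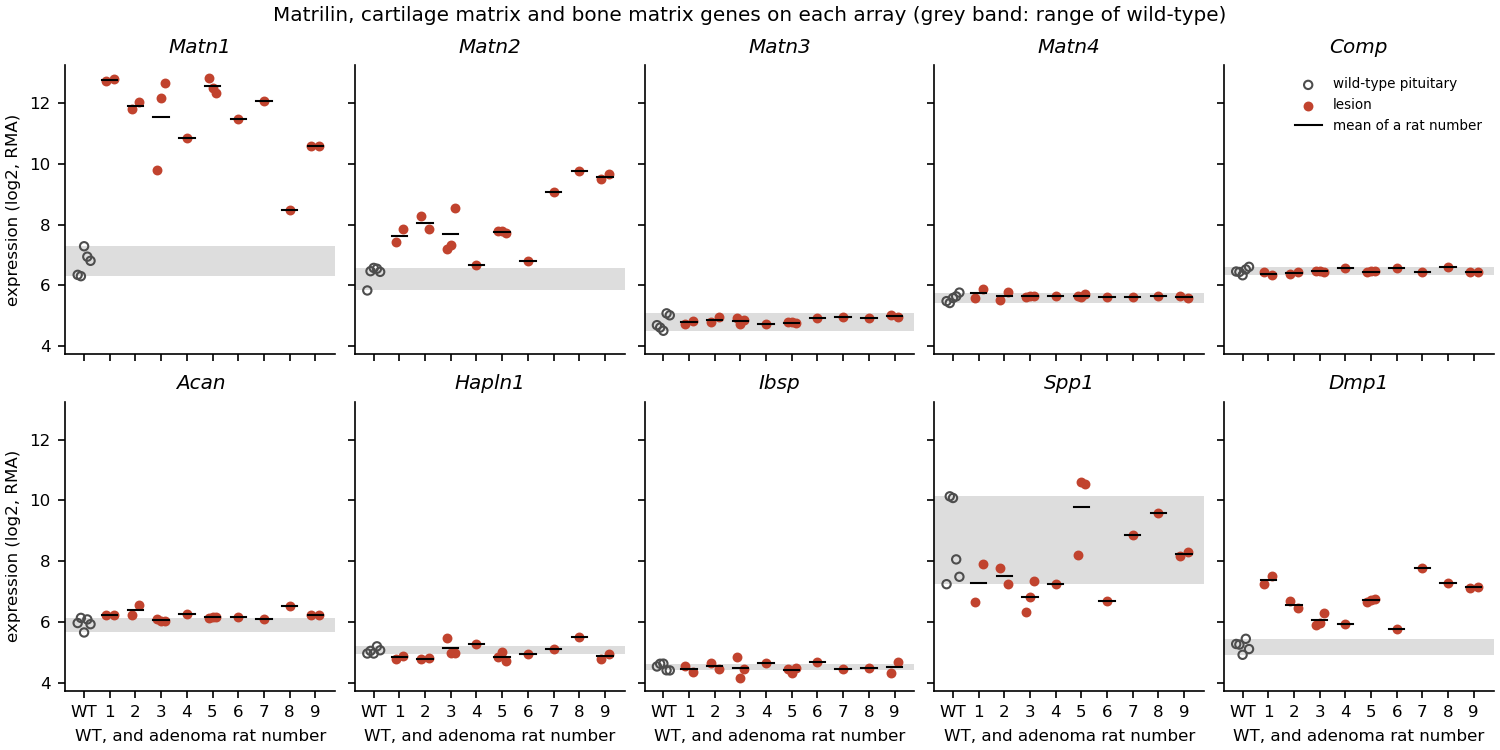
Log2 expression of the 10 genes on each array (y axis, shared scale), with open circles for the 5 wild-type pituitaries (WT), filled circles for the 16 lesions by adenoma rat number and a bar for the mean of each number. The grey band is the wild-type range: all 16 lesions lie above it for Matn1, Matn2 and Dmp1, while lesions of Matn3, Matn4, Comp, Hapln1 and Ibsp stay on or near it.

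The cartilage partners of the matrilins differed little. Comp was 6.48 ± 0.10 in wild-type and 6.49 ± 0.09 in adenomas, a log2 difference of 0.01 (SE 0.07). Hapln1 was 5.05 ± 0.10 and 5.04 ± 0.24 (difference -0.01, SE 0.11). Its highest adenoma value, 5.51, again came from adenoma 8. Acan measured 5.96, 6.13, 5.65, 6.08 and 5.93 in wild-type pituitaries and from 6.04 over 6.20 to 6.55 in the lesions. The mean of Acan was 0.29 higher in adenomas (SE 0.09, 1.22-fold), and 7 of 9 adenomas lay above the wild-type range. The groups of Acan overlapped in 4 lesions.

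Among the bone matrix phosphoproteins, Dmp1 stood apart from its neighbours. Dmp1 measured 5.27, 5.25, 4.92, 5.44 and 5.11 in wild-type pituitaries and from 5.78 over 6.70 to 7.76 in the lesions. The groups did not overlap, and the mean was 5.20 ± 0.20 in wild-type against 6.74 ± 0.70 in adenomas, a log2 difference of 1.54 (SE 0.29, 2.90-fold). Ibsp was 4.52 ± 0.11 and 4.52 ± 0.09 (difference -0.00095, SE 0.068). Spp1 was the most variable of the 10 genes in wild-type tissue, at 7.24, 10.13, 10.08, 8.06 and 7.48. Its lesions ran from 6.33 over 7.84 to 10.60 and spanned the wild-type range, with means of 8.60 ± 1.41 and 8.00 ± 1.17 (difference -0.60, SE 0.62). The 2 wild-type pituitaries with high Spp1 also had the highest gonadotroph marker mean, 10.85 and 10.86 against at most 9.80 in the other 3. The part of this in Spp1 was not tested. The mean is over 5 genes, of which Cga and Gnrhr rose in adenomas while Lhb and Fshb fell. Across adenomas Fshb varied most (SD 1.24) and Cga least (SD 0.05). This mean, also used below, is therefore not a measure of gonadotroph content.

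Counting by the rule used for other genes (limma adjusted p under 0.05), 4 of the 10 genes were higher in adenomas (Matn1, Matn2, Dmp1 and Acan) and none was lower. Over all 29214 probe sets 8.49% were higher and 9.06% lower, and for 2.66% all adenoma values lay above all wild-type values, as in 3 of the 10. Since this comparison chose the list, nothing is read from these counts. The median log2 difference was 0.08 over the 10 genes and -0.03 over all probe sets, and 6 of the 10 differed by less than 0.3. The difference of Matn1 was 5.60 within rats of prefix 08 and 3.64 within prefix 09, that of Matn2 1.42 and 2.29, and that of Dmp1 1.27 and 1.83.

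Further genes of cartilage, bone matrix, their receptors and their proteases, 59 measured genes outside the list, were tested in the same comparison. Of these, 5 rose (8.47%) and 1 fell (1.69%), against 8.49% and 9.06% of all probe sets. Their median log2 difference was -0.03, close to that of all probe sets. These genes too were listed with earlier results of these data known, so their adjusted p-values are not those of an independent list. Of the 7 cartilage collagens none rose. Col2a1, the main fibrillar collagen of cartilage, was at 7.52 ± 0.14 in wild-type and 7.39 ± 0.11 in adenomas (difference -0.13, adjusted p = 0.253). Col11a1, which forms fibrils together with type II collagen, fell by 0.71 (SE 0.14, adjusted p = 0.00286), and all 9 adenomas lay below all wild-type values. Its call did not hold within prefix 08 alone (-0.82, adjusted p = 0.0655) or 09 alone (-0.57, adjusted p = 0.0581). None of the 4 measured chondrocyte transcription factors passed the test. Sox6, a cofactor of Sox9, was nearest with -0.36 (SE 0.13, adjusted p = 0.0609), Runx2 differed by -0.05 (adjusted p = 0.842), and Sox9 itself was not analysed here because it has no named probe set. Neither measured proteoglycan known to bind matrilins passed, decorin (Dcn) at -0.87 (SE 0.42) and biglycan (Bgn) at +0.57 (SE 0.28).

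Among 15 other cartilage matrix genes, Crtac1, which encodes cartilage acidic protein 1 and is also known from neural tissue, was the only one to pass. It rose from 7.12 ± 0.39 to 8.77 ± 0.68 (difference 1.64, SE 0.30, adjusted p = 0.00210), with 8 of 9 adenomas above the wild-type range. The call did not hold within prefix 08 alone, although the size did (1.60, adjusted p = 0.109). None of the 6 other lecticans and link proteins passed, and neither did thrombospondin 1 (Thbs1), the measured relative of COMP. Of 7 proteases that cut aggrecan or COMP, Adamts1 (+0.52, SE 0.15, adjusted p = 0.0240) and Adamts4 (+0.37, SE 0.11, adjusted p = 0.0272) rose. Both calls were lost without single wild-type pituitaries: Adamts1 had an adjusted p of 0.0615 without wild-type pituitary 3, and Adamts4 0.0567 without 2 and 0.0629 without 5. With array weights they were also lost (0.0674 and 0.0683), as was Adamts4 with the rat number as a random block (0.0569).

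**Figure D2:**
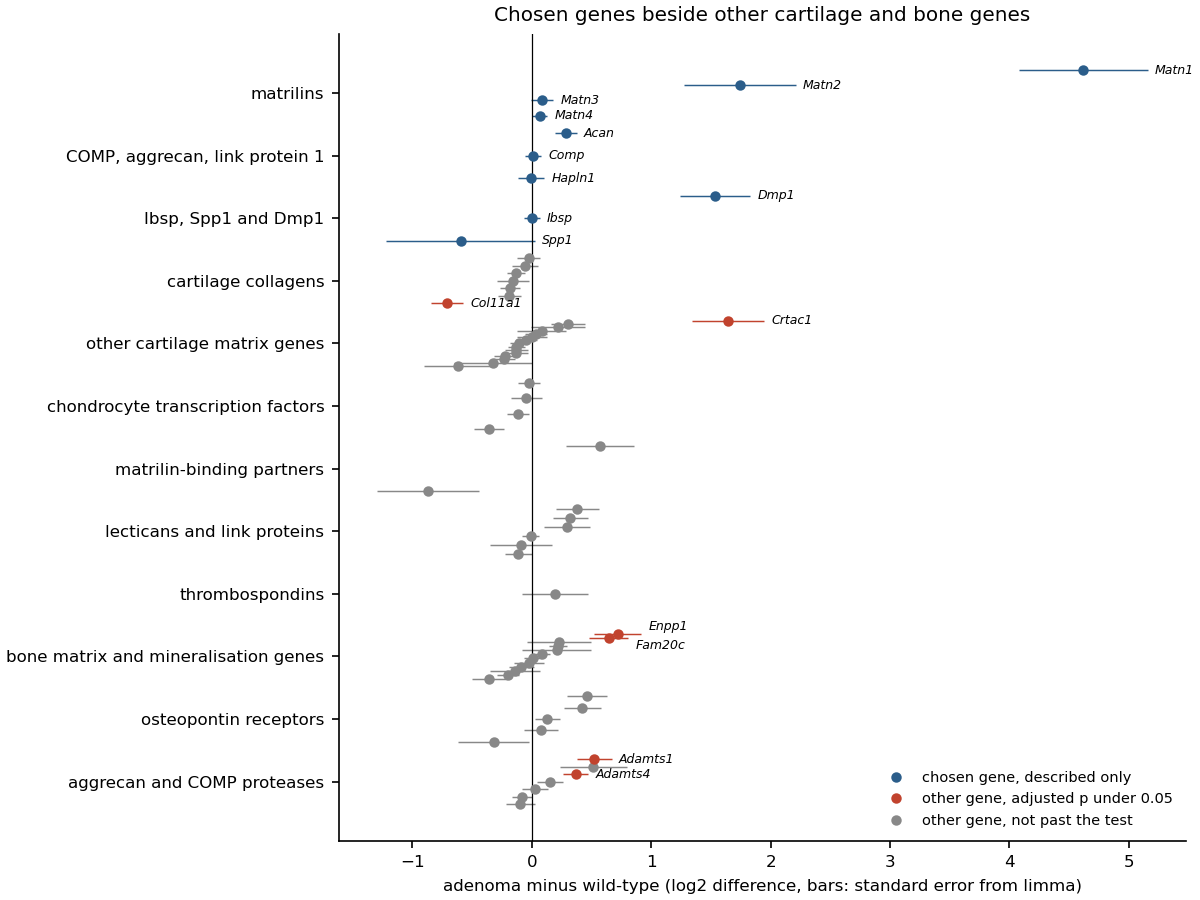
Log2 difference of adenoma minus wild-type (x axis) for each gene, by group of genes (y axis), with bars for the SE from limma. The 10 chosen genes are blue and are described only, red other genes passed an adjusted p under 0.05, and grey genes did not: Matn1 at 4.62 has the largest difference of the genes plotted, and the cartilage collagens all lie below 0.

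Of 12 bone matrix and mineralisation genes, 2 rose and none fell. Enpp1, which makes the mineralisation inhibitor pyrophosphate, rose by 0.72 (SE 0.19, adjusted p = 0.0199), and the secretory kinase gene Fam20c, whose product phosphorylates Dmp1, Ibsp and Spp1 proteins, by 0.64 (SE 0.16, adjusted p = 0.0147). Lesion values of Enpp1 ran from 7.65 over a median of 8.39 to 11.31, and the highest wild-type value was 8.10. The call of Enpp1 was lost without wild-type pituitary 3 (adjusted p = 0.0579) or 4 (0.0666). It was also lost with lesions as independent samples (0.0810) or with the rat number as a random block (0.196). Of the 6 called genes outside the list, Crtac1 alone kept its call within prefix 09 or with adenomas of 7 or 8 months alone, and none did within prefix 08. The main bone genes did not pass: Col1a1 differed by +0.23 (SE 0.27), osteocalcin (Bglap) by -0.20 (SE 0.09), and tissue non-specific alkaline phosphatase (Alpl) by +0.22 (SE 0.07, adjusted p = 0.0554). No osteopontin receptor among 5 passed, with the integrin gene Itga4 at +0.46 and Cd44 at -0.32.

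Cell-type markers also differed between the groups. Over all probe sets 8.49% were higher and 9.06% lower. The marker lists were chosen with earlier results of these data known, so their counts are a description. In bulk tissue, more or fewer cells of a type and more or less RNA per cell cannot be told apart. Of 12 macrophage markers 8 rose and none fell, and their mean level was 6.32 to 6.96 in wild-type and 6.90 to 7.82 in adenomas. Of 8 fibroblast and pericyte markers 6 rose and 1 fell (6.82 to 7.14 against 7.15 to 7.92). Of 6 markers of other hormone cells 5 fell (11.6 to 12.1 against 8.63 to 10.3), and adenoma 8 was the lowest. The 5 include the transcription factor genes Pou1f1 and Tbx19. The exception was the hormone gene Prl, at 13.69 ± 0.12 in wild-type and 13.77 ± 0.08 in adenomas (+0.08, limma adjusted p = 0.434). Both means lie close to the highest value on the arrays, 14.09. Of 6 posterior lobe markers 4 fell (6.77 to 6.91 against 6.07 to 6.52). Of 3 osteoclast markers Acp5 and Calcr rose and Ctsk did not pass. Calcr, the calcitonin receptor gene, differed by 5.72 (SE 0.16), while the mean of Acp5 and Ctsk was 6.49 to 6.73 against 6.44 to 7.71. Adenoma 5 had the highest osteoclast mean, 7.71, and also the highest Spp1 of the adenomas, 9.78. The part of these markers in the values of the 10 genes was not tested.

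Gene order in the rat annotation (GRCr8, used for order only) gave the neighbours of the 3 genes with separated groups. Beside Matn1, Laptm5 rose by 1.39 (SE 0.29, adjusted p = 0.00462), a lysosomal gene of blood cells that is also on the macrophage marker list. Within prefix 08 alone the difference of Laptm5 was 1.56 (adjusted p = 0.0850). Next on that side, Sdc3 rose by 0.58 (adjusted p = 0.0433), a call that was lost in 16 of 28 alternative settings, and Snrnp40 differed by 0.01. On the other side Ptpru fell by 0.25 (adjusted p = 0.0206, and 0.0645 without wild-type pituitary 4), and Mecr and Srsf4 did not pass. Beside Matn2, Laptm4b rose by 0.86 (SE 0.21, adjusted p = 0.0110) and Rida by 1.81 (SE 0.19, adjusted p = 5.42e-05), while Mtdh, Cpq and Pop1 did not pass. Within prefix 08 alone the difference of Laptm4b was 0.29 (adjusted p = 0.374). Rpl30, a ribosomal gene with near-identical copies, is uncertain and did not pass either.

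Dmp1 lies in a cluster of related genes. Ibsp, Mepe and Spp1 follow on one side and Dspp on the other. Mepe (+0.09, adjusted p = 0.346) and Dspp (+0.01, adjusted p = 0.945) did not pass, and both belong to the same phosphoprotein family. Beyond Dspp, Sparcl1 rose by 0.80 (SE 0.25, adjusted p = 0.0381), a call lost in 14 of 28 alternative settings, and Nudt9 did not pass. Only Dmp1 of this cluster had separated groups, so the 250 bases before the annotated start of the 3 chosen cluster genes are shown to compare them (RefSeq, GRCr8, each read 5′ to 3′ on the minus strand).
Dmp1, chr14:5840085-5840334: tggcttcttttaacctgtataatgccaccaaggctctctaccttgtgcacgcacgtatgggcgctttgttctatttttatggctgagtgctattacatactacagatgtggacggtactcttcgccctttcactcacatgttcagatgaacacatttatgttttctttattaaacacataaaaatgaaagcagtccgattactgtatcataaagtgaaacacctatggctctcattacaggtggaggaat
Ibsp, chr14:5757243-5757492: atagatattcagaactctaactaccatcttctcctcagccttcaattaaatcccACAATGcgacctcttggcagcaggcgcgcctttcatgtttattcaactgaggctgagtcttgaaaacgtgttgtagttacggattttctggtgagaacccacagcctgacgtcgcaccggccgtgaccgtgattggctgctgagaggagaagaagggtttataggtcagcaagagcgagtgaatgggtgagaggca
Spp1, chr14:5619805-5620054: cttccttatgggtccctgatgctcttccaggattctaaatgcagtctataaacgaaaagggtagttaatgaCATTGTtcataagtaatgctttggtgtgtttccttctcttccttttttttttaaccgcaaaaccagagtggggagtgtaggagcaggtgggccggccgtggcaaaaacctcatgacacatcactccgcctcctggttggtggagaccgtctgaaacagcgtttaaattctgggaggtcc
Capitals mark the letters ACAATG, a core that SOX factors bind, on either strand, where the minus-strand match reads CATTGT. It starts 196 bases before the start of Ibsp and 179 before that of Spp1, and was not found in the Dmp1 window. Of 27457 promoter windows of this length, 10.9% held it. AAGGTCA, an SF-1 core (SF-1 is the gonadotroph factor encoded by Nr5a1), was in 3.77% of windows and ACCACA, a RUNX core, in 14.1%. Of the 7 chosen genes with a window (Matn1, Matn2 and Matn4 had none), Hapln1 alone held either of these last motifs. A match of letters is only a description. The Dmp1 start used here lies inside the annotated gene, so its window is 1 of possibly several.

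**Figure D3:**
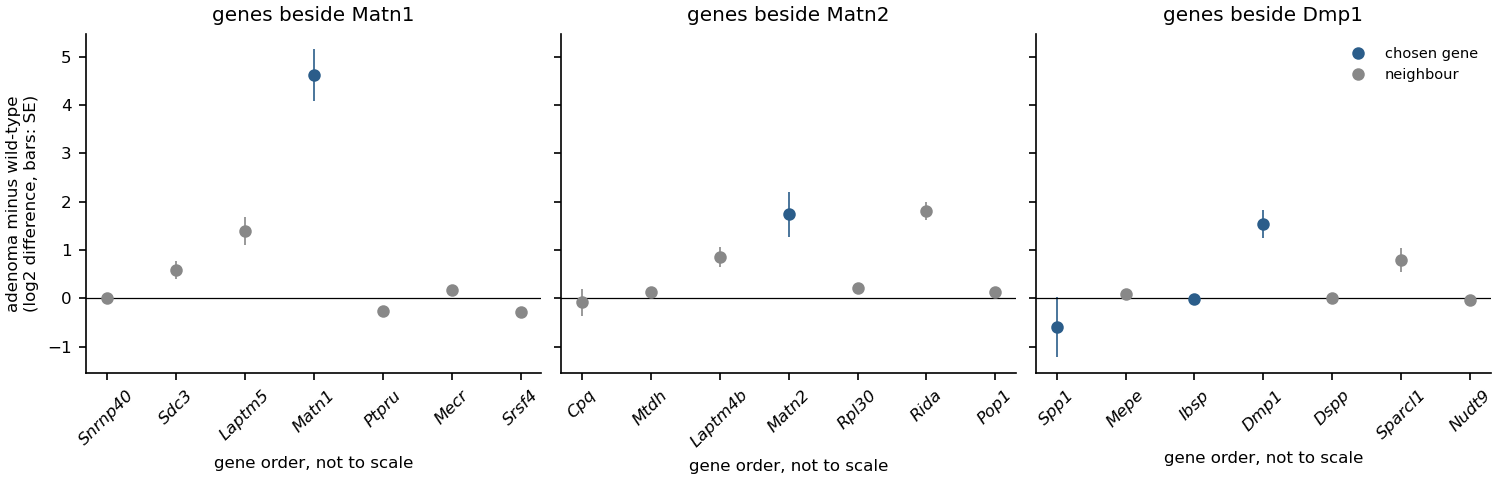
Log2 difference of adenoma minus wild-type (y axis, bars for the SE) for Matn1, Matn2 and Dmp1 and their 3 nearest measured genes on each side, in gene order and not to scale. Chosen genes are blue: Matn1 stands at 4.62 against 1.39 for Laptm5, and Rida beside Matn2 stands at 1.81 against 1.74 for Matn2.

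Lesions of 1 rat number allowed the spread within and between rats to be set side by side for 5 adenomas. For Matn1 the SD was 0.84 within numbers and 0.87 between these 5. Most of the former came from adenoma 3, whose 3 lesions measured 9.79, 12.16 and 12.68. In the other 4 adenomas with several lesions the range was at most 0.48. For Dmp1 the SD was 0.14 within and 0.52 between the 5 numbers, and for Matn2 0.43 and 0.82. Spp1 had an SD of 0.86 within and 1.15 between, with the widest range in adenoma 5 (8.21, 10.60 and 10.53).

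Age within adenomas was not itself used to draw up the list. The list was, however, made with earlier results of these data known. The probe set of Matn2 was named through genes picked on the group comparison, in which genotype and age cannot be told apart. Slopes and counts by age are therefore not independent of that choice, and nothing is read from the share of genes. The largest slopes were those of Matn2 (0.49 log2 per month, SE 0.11), Spp1 (0.47, SE 0.13) and Dmp1 (0.31, SE 0.07). None passed the adjustment over all probe sets (limma adjusted p = 0.160, 0.234 and 0.153). Together with Ibsp (-0.04 per month, adjusted p = 0.346) they made 4 of the 10 genes at an unadjusted p under 0.05, a share that was 11.8% over all probe sets. Only 0.00342% of probe sets, a single one, was called for age. In the 2 youngest adenomas, of 7 and 8 months, Matn2 was 6.66 and 6.82 and Dmp1 5.94 and 5.78. In the 3 adenomas of 10 and 11 months, Matn2 was 7.64 to 8.07 and Dmp1 6.06 to 7.39. In the 4 adenomas of 12 months, Matn2 was 7.77 to 9.77 and Dmp1 6.72 to 7.76, which overlapped those of 10 and 11 months but not the 2 youngest. Against wild-type the 2 youngest adenomas differed by 0.36 in Matn2 and 0.66 in Dmp1, compared with 1.74 and 1.54 over all 9. Matn1 had a slope of -0.03 (SE 0.22, limma adjusted p = 0.974), and its 2 youngest adenomas differed from wild-type by 4.42. Matn1 was 10.84 and 11.47 in the 2 youngest, 11.54 to 12.76 at 10 and 11 months and 8.47 to 12.55 at 12 months. The lowest of these was adenoma 8, and the slope of Matn1 without it is not given here. Spp1 was 6.68 to 7.52 in the 5 adenomas under 12 months and 8.24 to 9.78 at 12 months. Within prefix 08 and 09 alone the slopes were 0.23 and 0.67 for Matn2, 0.21 and 0.40 for Dmp1, and 0.37 and 0.56 for Spp1, with adjusted p from 0.127 to 0.501. The macrophage marker mean correlated over the 9 adenomas with Dmp1 (Pearson 0.69), Matn2 (0.55) and Spp1 (0.51). For the mean of other hormone cell markers these values were -0.69, -0.82 and -0.52, and for the gonadotroph mean -0.62, -0.42 and -0.45. For the osteoclast mean of Acp5 and Ctsk they were 0.25, 0.19 and 0.71. Those of the fibroblast and posterior lobe means lay between -0.317 and 0.265. Matn1 correlated by 0.68 with the other hormone mean, 0.51 with the fibroblast mean and 0.27 with the osteoclast mean. With the macrophage, posterior lobe and gonadotroph means its values were 0.18, -0.03 and -0.14. Adenoma 8 was lowest both in Matn1 and in the other hormone mean. The part of any of these markers in the slopes or in Matn1 was not tested.

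**Figure D4:**
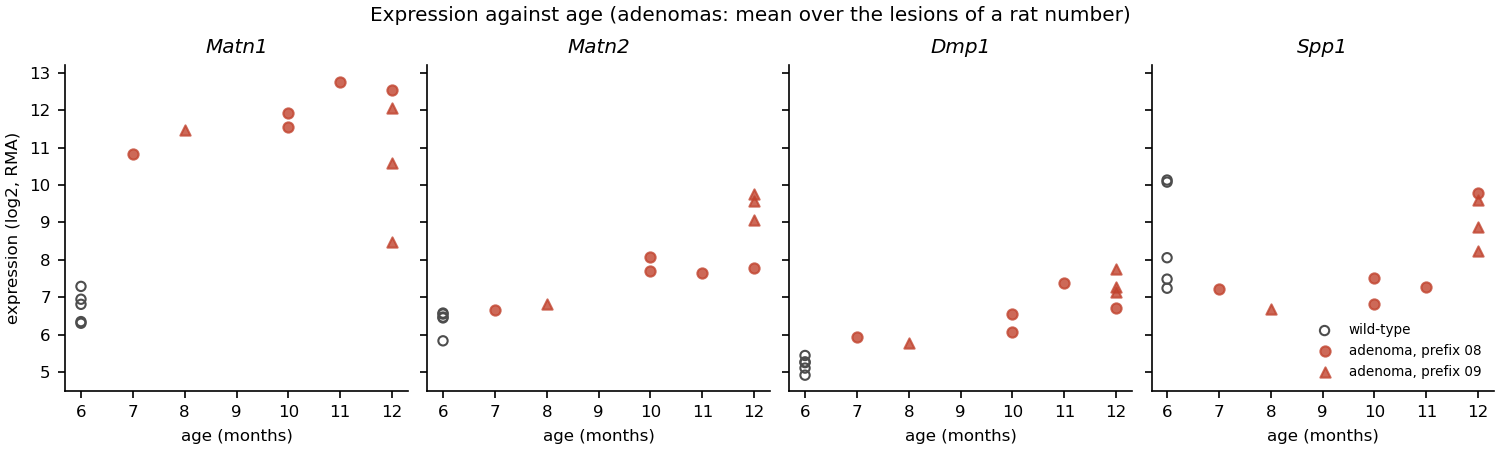
Log2 expression (y axis) against age in months (x axis) for 4 genes, with open circles for the 5 wild-type pituitaries, all of 6 months, and filled symbols for the 9 adenomas (circles for rat number prefix 08, triangles for 09). Matn1 lies above wild-type at every age, lowest in adenoma 8 at 12 months, whereas Matn2 and Dmp1 lie near the wild-type values at 7 and 8 months and higher at 12 months.

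Sex gave no call. Of all probe sets 0% were called between female and male adenomas (8.01% at an unadjusted p under 0.05), and none of the 10 genes passed either threshold (adjusted p from 0.713 to 0.987). The 6 female adenomas had a Matn1 mean of 11.0 ± 1.49 and the 3 male ones 12.0 ± 0.51 (female minus male -0.97, SE 0.77). It was -0.46 without adenoma 8 and -0.20 within prefix 08, which holds all males. The interaction of sex with the adenoma difference called 0% of probe sets (6.78% at an unadjusted p under 0.05) and none of the 10 genes at either threshold (adjusted p from 0.803 to 0.966), the largest being Spp1 at 2.00 (SE 1.18).

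Correlations of Matn1 with the other chosen genes across adenomas ran from -0.78 (Hapln1) to 0.30 (Matn4). Over the 9 adenomas, which share 1 normalization, Pearson's r (Spearman's rho) of Matn1 was -0.50 (-0.28) with Matn2, -0.02 (0.30) with Dmp1, -0.67 (-0.40) with Acan, -0.71 (-0.63) with Comp and -0.78 (-0.65) with Hapln1. These rested partly on adenoma 8: without it r was -0.08 for Matn2, 0.41 for Dmp1, -0.09 for Acan, -0.51 for Comp and -0.45 for Hapln1. Without adenoma 8, r of Matn1 also went from 0.295 to 0.657 with Matn4 and from -0.173 to -0.615 with Ibsp. With Spp1 it went from -0.272 to 0.327, and with Matn3 from -0.398 to -0.298. Matn2 and Dmp1 varied together (r 0.76, rho 0.63, and r 0.76 without adenoma 8). Of 14506 genes, those most like Matn1 over the 9 adenomas were Erich1 (r 0.97), Cnpy3 (0.95), Msi1 (0.94), Orc3 (0.93) and Hs6st1 (0.92). All 5 were lowest in adenoma 8, and without it r was 0.73 to 0.90. None of the 5 is on a cartilage or bone list used here.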

How the data were processed

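Gene-level values of 21 arrays were used as deposited. The authors made them in Affymetrix Expression Console with RMA at standard settings (sketch-quantile normalization and median polish), on the log2 scale, with versions not given in the sources here. A shift shared by most genes can be lost in quantile normalization, and differences near background or saturation come out too small. Array medians ran from 6.36 to 6.53, and values from 2.01 to 14.09. For arrays, precision is limited by their number. Every column belonged to a sample.

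Probe sets were named by the platform annotation (15310 of 29214 with 1 symbol, 323 with several, 13581 with none). Each chosen gene had 1 probe set; for other genes the probe set of highest mean across the arrays was taken. Lesions of 1 rat number were averaged. limma 3.58.1 in R 4.3.3 fitted each probe set (12 residual and 3.21 prior degrees of freedom) for group, and within adenomas for sex or age, with Benjamini-Hochberg adjustment over all probe sets and a call at an adjusted p under 0.05. The fit was tested on simulated data. The text names the 10 genes, the called genes of each list (at most 4 each way) and up to 3 markers per list. The gonadotroph list is the exception, with all 5 measured markers named. Also named are the 3 nearest measured neighbours on each side of Matn1, Matn2 and Dmp1, the 5 genes most like Matn1, and Cdkn1b. Further list members given as not passing were chosen after their values were seen. The 10 genes and all lists were chosen with earlier results of these data known. Each rat number was taken as 1 animal, and sex as labelled, unchecked. The alternatives were lesions as separate samples or with a random block, the methods' t-test, prefix, sex or replicate terms, subsets by prefix and age, 2 other normalizations, a filter on dim probe sets, other variance settings, a fold over 2, and leaving out each rat number.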

Additional observations from a re-analysis of the deposited data

Results flagged for a closer look

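Extreme values were looked for in the 20 groups formed by the 10 genes in adenomas and in wild-type pituitaries, where chance marks about 1 group in 20 by Dixon's criterion. The criterion divides the gap to the next value by the range, with a critical value of 0.493 for adenomas and 0.71 for wild-type. In 3 groups an extreme sample passed it. Matn1 was lowest in adenoma 8 at 8.47, with the next adenoma at 10.59 (gap over range 0.494), which passed only narrowly. Matn2 was lowest in wild-type pituitary 1 at 5.84, with the next at 6.45 (0.825). Matn4 was highest in adenoma 1 at 5.74, with the next at 5.66 (0.585), a gap of less than 0.1 on the log2 scale.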

How the results depend on the processing

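The log2 difference of Matn1 lay between 3.64 and 5.60 in 28 alternatives. Of 246 values of the other 9 genes, 237 moved by less than the SD between replicates, and the 9 that moved more were those of Matn2 (0.36), Dmp1 (0.66), Ibsp (0.15) and Comp (0.11) with adenomas of 7 or 8 months alone, and 5 of Matn4 (-0.04 to 0.21). None of the 10 genes was called by sex, age or interaction in any alternative run with limma. The 5 other cartilage and bone genes called higher became 8 with the prefix as a block or with quantile normalization, 3 with array weights, 1 within prefix 09 alone, with adenomas of 7 or 8 months alone or with a fold over 2, and 0 within prefix 08 alone. The 1 called lower became 6 with lesions as independent samples or by the methods' t-test, 3 with the rat number as a random block, 2 with the prefix as a block, and 0 within prefix 08 alone, with adenomas of 7 or 8 months alone or with a fold over 2. Leaving out 1 rat number gave 4 to 7 higher and 1 to 4 lower. The cause was not tested, beyond fewer samples in the subsets. Replicate numbers 1 to 5 are shared between groups, and same-numbered samples correlated by -0.05 to 0.20. Lesion replicates 1 and 2 both come from adenoma 1 and replicates 3 and 4 from adenoma 2, while each wild-type replicate is a separate rat. The numbers therefore do not pair 1 adenoma rat with 1 wild-type rat. Differently numbered samples were not compared, so the correlations cannot decide whether the numbers mark a pairing of another kind. With the replicate block 3 were higher and 4 lower, and Adamts1 (limma adjusted p = 0.0673) and Adamts4 (0.255) were not called. This block was fitted on single arrays, so only replicates 1 to 5 inform its group difference. Those lesions come from adenomas 1, 2 and 3 alone, all of prefix 08, and count as separate samples there. Averaging several probe sets of a gene was not run separately for the 10 genes, which have 1 each. The filter on dim probe sets dropped Matn3, Matn4, Acan, Hapln1, Ibsp and Dmp1, whose small values lie nearer to background.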
